A study of Mus musculus with 12 samples.

Results

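The microglia identity genes are 33 genes whose combined expression sets microglia apart from the other cells of the brain. They were taken from the count and TPM tables by gene identifier, as the 33 identifiers that map to a list of symbols, out of 55487 genes in all. The list was drawn up by gene name and with earlier results of these data known. All 33 were found, and all 33 passed the filter on low counts that left 16836 genes for testing.

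Microglia are the resident macrophages of the brain. They live on CSF1R signalling, hold their identity through TGF-beta signalling and the factor SALL1, and read their surroundings through purine receptors such as P2RY12 and the fractalkine receptor CX3CR1. Because P2ry12, Tmem119 and Cx3cr1 are commonly read as signs of resting microglia, a fall of 1 such transcript and a fall of the whole set are different observations. In bulk tissue, fewer cells of a type and less RNA per cell cannot be told apart.

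RNA was sequenced from mouse cortex 2 hr after controlled cortical impact (CCI), a piston injury to the exposed cortex, on the injured (ipsilateral) and opposite (contralateral) sides. The labels give the genotype of the group called wt as CX3CR1cre-er/+ and that of the group called cKO as CX3CR1cre-er/+ STING fl/fl. STING is the adaptor of cytosolic DNA sensing. Each of the 4 groups of genotype and side held 3 libraries. Every group therefore carried 1 Cre allele at Cx3cr1, itself a member of the set, so its level could not be set against an intact locus. The series design gives the floxed animals a constitutive CX3CR1cre/+ allele where the labels give cre-er, and tamoxifen is not mentioned. No sham or uninjured group was analysed here. Whether the 3 libraries of a group stand for 3 animals is not stated, and p-values here measure their spread, which may be technical.

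Libraries held 7.96 to 33.6 × 1e6 estimated counts, and cKO ipsilateral library 3 was the shallowest. The 33 members together took 0.0651% to 0.0768% of a library's counts. Levels between genes are given as TPM (transcript abundance scaled to a fixed total per library and corrected for transcript length), and levels of 1 gene between libraries as CPM (counts in each 1e6 of the scaled library size).

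The members were all detected in every library, from 6 counts of Adora3 upwards. Lgmn, the lysosomal protease legumain, was the most abundant per length at 102 TPM on average over the 12 libraries. It was followed by Ctss, the protease cathepsin S, at 82.4 TPM and by Tyrobp, the signalling adaptor DAP12, at 51.3 TPM. Csf1r, the receptor for the survival factor CSF1, averaged 43.2 TPM. Genes held to be more specific to microglia within the brain were lower, with 23.2 TPM for P2ry12, 14.7 TPM for Tmem119, 9.36 TPM for Cx3cr1 and 4.05 TPM for Sall1. The lowest was Adora3, the adenosine A3 receptor, at 0.45 TPM. The labels name cortex tissue and no cell type, and the defining microglial markers P2ry12, Tmem119, Cx3cr1 and Sall1 were present on both sides and in both genotypes, as the plot of TPM for each member shows.

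**Figure D1:**
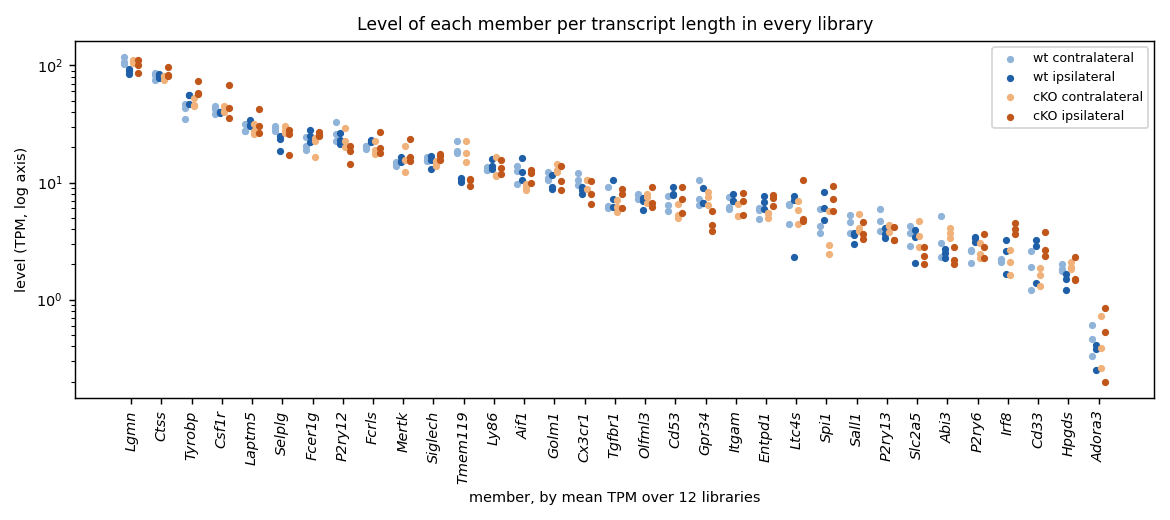
Level of each of the 33 members in every library, as TPM on a log axis, ordered by the mean over the 12 libraries. Points are single libraries coloured by group. Lgmn averages 102 TPM and Adora3 0.45 TPM, and for most members the 4 groups lie on top of each other.

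On the injured side the set as a whole was not lower, while Tmem119 fell by 38.7% in wt and by 38.1% in cKO. Spi1, which encodes the myeloid transcription factor PU.1, more than doubled in counts, and Entpd1, the ATP-degrading ectoenzyme CD39, rose. In wt cortex 2 members rose (Spi1 and Entpd1) and 1 fell (Tmem119), where 2.73% of all genes tested rose and 0.184% fell. In cKO cortex 3 rose (Spi1, Irf8 and Entpd1) and 2 fell (Tmem119 and Abi3), where 2.56% of all genes rose and 0.178% fell. Over both genotypes 7 rose (Spi1, Entpd1, Tyrobp, Irf8, Cd53, Fcer1g and Ctss) and 1 fell (Tmem119), where 5.99% of all genes rose and 2.03% fell. Calls are those of edgeR's quasi-likelihood test with a Benjamini-Hochberg adjusted p under 0.05.

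The median log2 change of the 33 members from contralateral to ipsilateral was 0.18 in wt, 0.14 in cKO and 0.20 over both. The median over all genes tested was -0.01 in each of these comparisons. Of the 33, 20 lay above 0 in wt and 21 in cKO, where 48.8% and 48.6% of all genes tested did. The plot of side differences shows Spi1 at the top and Tmem119 at the bottom in both genotypes, with most members between -0.3 and 0.6.

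**Figure D2:**
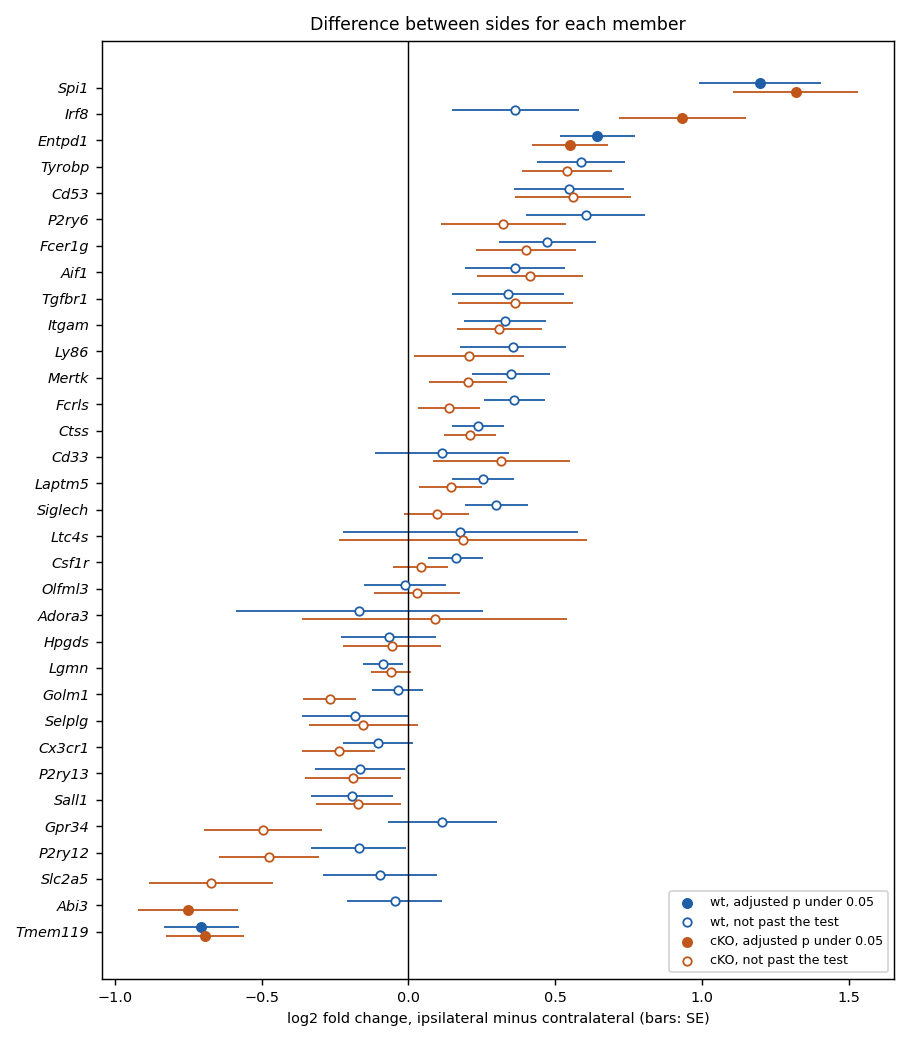
Log2 fold change of each member, ipsilateral minus contralateral cortex, with bars of 1 SE from the fit over all 12 libraries (3 per group). Blue is wt and orange cKO, and filled points have an adjusted p under 0.05. Spi1 (1.2 and 1.32) and Tmem119 (-0.71 and -0.69) are filled in both genotypes.

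Tmem119, a transmembrane protein used as a marker of brain-resident microglia, lies at chr5:113793729-113800516 on the minus strand. Its levels were 24.6, 27 and 23.6 CPM in wt contralateral libraries 1 to 3, and 12.6, 16.9 and 16.7 CPM in wt ipsilateral libraries. They were 19.4, 21.9 and 24.8 CPM in cKO contralateral libraries and 12.5, 15.4 and 12.6 CPM in cKO ipsilateral libraries. The 6 ipsilateral libraries were all below the 6 contralateral ones, so the sides did not overlap. The log2 change was -0.71 ± 0.13 (SE) in wt (edgeR's quasi-likelihood test, adjusted p = 0.00564). In cKO it was -0.69 ± 0.13 (adjusted p = 0.00797), and over both genotypes -0.70 ± 0.09 (adjusted p = 0.000156). The change in cKO minus that in wt was 0.01, with a 95% interval of -0.35 to 0.38. Without cKO ipsilateral library 1 the call in cKO was lost, at an adjusted p of 0.0614 and a log2 change of -0.63.

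A group of 6 members held the nucleotide and adenosine receptors together with the enzyme Entpd1 and the lipid receptor Gpr34. In this group the enzyme rose and the microglial P2Y receptors did not pass the test. Entpd1 breaks extracellular ATP and ADP down to AMP. It was at 9.49, 9.50 and 11.4 CPM in wt contralateral libraries and 16, 16.2 and 15.2 CPM in wt ipsilateral ones. In cKO it was at 9.98, 10.4 and 11.0 CPM contralaterally and 15.6, 17.7 and 11.6 CPM ipsilaterally. Every ipsilateral library was above every contralateral one, cKO ipsilateral library 3 by the least. The log2 change was 0.64 ± 0.13 in wt (adjusted p = 0.0106), 0.55 ± 0.13 in cKO (adjusted p = 0.0334) and 0.60 ± 0.09 over both (adjusted p = 0.000621). The wt call was lost when either wt library numbered 2 was left out, contralateral or ipsilateral (adjusted p of 0.0737 and 0.0558). The cKO call was lost in 7 of 12 fits that each left out 1 library, with adjusted p up to 0.223, and the call over both genotypes in 0 of 12. The 7 were those without any cKO library other than ipsilateral library 3, or without wt ipsilateral library 2 or 3.

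P2ry12, the ADP receptor that steers microglial processes towards injury, was at 22.7, 20.6 and 29.0 CPM in contralateral wt and 21.6, 20.8 and 21.8 CPM in ipsilateral wt libraries. In cKO it was at 20.3, 23.6 and 17.5 CPM contralaterally and 11.7, 18.9 and 13.2 CPM ipsilaterally. The sides overlapped in both genotypes, and cKO ipsilateral libraries 1 and 3 were the lowest of the 12. The log2 change was -0.17 ± 0.16 in wt (adjusted p = 0.695), -0.47 ± 0.17 in cKO (adjusted p = 0.209) and -0.32 ± 0.12 over both (adjusted p = 0.113). P2ry13, a second ADP receptor, gave -0.16 in wt and -0.19 in cKO. P2ry6, the UDP receptor tied to phagocytosis, gave 0.60 and 0.32. Adora3 gave -0.17 and 0.09 with SE of 0.42 and 0.45, so its direction could not be read. Gpr34, a lysophosphatidylserine receptor, gave 0.12 in wt and -0.50 in cKO. None of these 5 receptors passed the test. P2ry12 and P2ry13 lie inside Med12l on the opposite strand, with 9 and 0 exon bases shared.

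Of the members that set microglial identity and survival, the myeloid factors rose and Sall1, Csf1r and Tgfbr1 did not pass the test. Spi1 (chr2:91082390-91115756, plus strand) was at 2.35, 3.01 and 3.26 CPM in contralateral wt and 6.10, 7.64 and 6.01 CPM in ipsilateral wt libraries. In cKO it was at 2.23, 2.73 and 3.91 CPM contralaterally and 8.25, 7.45 and 5.60 CPM ipsilaterally. All 6 ipsilateral libraries exceeded all 6 contralateral ones. Its log2 change was 1.2 ± 0.21 in wt (2.29-fold, adjusted p = 0.00396), 1.32 ± 0.21 in cKO (2.50-fold, adjusted p = 0.00176) and 1.26 ± 0.15 over both (adjusted p = 5.28e-05).

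The rise of Spi1 was smaller in TPM than in counts. Its TPM were 4.25, 3.74 and 5.96 in contralateral wt, 6.10, 8.24 and 4.74 in ipsilateral wt, 2.90, 2.47 and 5.68 in contralateral cKO, and 7.28, 9.31 and 5.76 in ipsilateral cKO libraries. In TPM the wt sides overlapped and the cKO sides did not. Tested by limma on log2(TPM + 1), the change was 0.37 in wt (adjusted p = 0.384), 0.89 in cKO (adjusted p = 0.168) and 0.63 over both (adjusted p = 0.0786). On that scale the median of all genes itself shifted by -0.18 in wt, -0.04 in cKO and -0.11 over both, 0 members rose in any of the 3 side comparisons, and Tmem119 still fell (-0.83 in wt, adjusted p = 0.00886, and -0.77 in cKO, adjusted p = 0.0128).

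Irf8, a partner of PU.1 in myeloid cells, was at 3.28, 3.59 and 3.67 CPM in contralateral wt and 4.75, 5.36 and 3.46 CPM in ipsilateral wt libraries. The cKO levels were 3.58, 2.60 and 4.52 CPM contralaterally and 7.10, 7.77 and 4.98 CPM ipsilaterally. The sides overlapped in wt and not in cKO. From contralateral to ipsilateral cortex the log2 change was 0.36 ± 0.22 in wt (adjusted p = 0.478), 0.93 ± 0.22 in cKO (adjusted p = 0.0289) and 0.65 ± 0.15 over both (adjusted p = 0.0164). The difference between the genotypes' changes, 0.57 ± 0.31, did not pass the test (adjusted p = 1). The cKO call was lost without cKO contralateral library 1 or 2 or cKO ipsilateral library 1 or 2 (adjusted p of 0.114 to 0.172). The call over both genotypes was lost without either ipsilateral library 2 (adjusted p of 0.0533 and 0.0550).

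Sall1, the zinc finger factor that holds microglia apart from other macrophages, was at 12.8, 14.7 and 16.9 CPM in contralateral wt and 12, 12.1 and 14.8 CPM in ipsilateral wt libraries. cKO libraries gave 12.6, 16.8 and 13.6 CPM contralaterally and 11.1, 14 and 13.2 CPM ipsilaterally. The sides overlapped in both genotypes, with log2 changes of -0.19 ± 0.14 (adjusted p = 0.585) and -0.17 ± 0.14 (adjusted p = 0.637). Csf1r was at 98.2, 98.4 and 105 CPM in contralateral wt, 96.2, 121 and 120 CPM in ipsilateral wt, 96.9, 103 and 102 CPM in contralateral cKO, and 91.2, 113 and 106 CPM in ipsilateral cKO libraries. In both genotypes the lowest and the 2 highest of the 6 libraries were ipsilateral. Its log2 change was 0.16 ± 0.09 in wt (adjusted p = 0.462) and 0.04 ± 0.09 in cKO (adjusted p = 0.891). Over both genotypes it was 0.10, with a 95% interval of -0.03 to 0.23, the narrowest of these 5 genes. Csf1r shares 873 of its 5774 exon bases with Hmgxb3, on the opposite strand and with at least 444 counts in every library. If counting ignored strand, reads of both genes may not be told apart. Tgfbr1, the type I TGF-beta receptor, gave 0.34 in wt and 0.36 in cKO and did not pass the test.

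The other surface receptors and transporters number 9, and Tmem119 was the member of that group that passed the test. Cx3cr1, the fractalkine receptor, was at 20.6, 21.8 and 24.2 CPM in contralateral wt and 19.3, 21.8 and 20.8 CPM in ipsilateral wt libraries. For cKO the levels were 18.3, 21.3 and 21.7 CPM contralaterally and 14.1, 19.8 and 18.3 CPM ipsilaterally. The sides overlapped, and the log2 change was -0.10 ± 0.12 in wt (adjusted p = 0.757) and -0.24 ± 0.12 in cKO (adjusted p = 0.412). Slc2a5, the fructose transporter GLUT5, gave -0.10 in wt and -0.67 ± 0.21 in cKO (adjusted p = 0.138). Its 3 cKO ipsilateral libraries, at 2.24 to 2.80 CPM, were all below its 3 cKO contralateral ones, at 3.76 to 4.82 CPM. Selplg, the selectin ligand PSGL-1, gave -0.18 and -0.15.

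The remaining 5 receptors of that group lay above 0 in both genotypes without passing the test. Fcrls, an Fc receptor-like protein of mouse microglia, gave 0.36 ± 0.10 in wt (adjusted p = 0.0868) and 0.14 in cKO. Its wt ipsilateral libraries, at 31.2 to 36.0 CPM, were above its wt contralateral ones, at 26.3 to 26.9 CPM. The lectin Siglech gave 0.30 and 0.10, the phagocytic receptor kinase Mertk 0.35 and 0.20, the integrin chain Itgam (CD11b) 0.33 and 0.31, and the inhibitory lectin Cd33 0.11 and 0.32.

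The 7 adaptor, membrane and cytoskeleton members split, with Abi3 below and the others above 0. Tyrobp, which carries signals for TREM2 and related receptors, was at 10.2, 10.4 and 7.82 CPM in contralateral wt and 11.3, 15.6 and 15.8 CPM in ipsilateral wt libraries. Levels in cKO were 10.2, 9.37 and 12.2 CPM contralaterally and 14.1, 15.7 and 16.7 CPM ipsilaterally. Within each genotype the sides did not overlap. From contralateral to ipsilateral cortex the log2 change was 0.59 ± 0.15 in wt (adjusted p = 0.0508), 0.54 ± 0.15 in cKO (adjusted p = 0.0906) and 0.56 ± 0.11 over both (adjusted p = 0.00382), a call kept in all 12 fits that left out 1 library.

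Fcer1g, the signalling chain of Fc receptors, was at 5.59, 6.57 and 5.58 CPM in contralateral wt, 6.51, 9.53 and 8.60 CPM in ipsilateral wt, 4.58, 6.39 and 6.48 CPM in contralateral cKO, and 7.42, 8.33 and 6.84 CPM in ipsilateral cKO libraries. The sides overlapped in wt by 1 library and not in cKO. Over both genotypes the log2 change was 0.44 ± 0.12 (adjusted p = 0.0363). The call was lost in 6 of 12 fits that left out 1 library (wt contralateral 1, wt ipsilateral 2 and 3, cKO contralateral 1, cKO ipsilateral 1 and 2), with adjusted p of 0.0658 to 0.0983.

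Cd53, a tetraspanin of leukocytes, was at 5.87, 6.08 and 7.37 CPM in contralateral wt, 9.22, 9.61 and 9.38 CPM in ipsilateral wt, 4.87, 6.01 and 5.19 CPM in contralateral cKO, and 7.32, 10.5 and 4.85 CPM in ipsilateral cKO libraries. The wt sides did not overlap, and cKO ipsilateral library 3, the shallowest, was the lowest of the 12. Over both genotypes the log2 change was 0.55 ± 0.14 (adjusted p = 0.0210). Leaving out either wt library 2, cKO contralateral library 1 or cKO ipsilateral library 2 ended the call, with adjusted p of 0.0532 to 0.0654.

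Abi3, a regulator of actin in microglia, was at 7.84, 7.64 and 5.54 CPM in contralateral wt and 5.53, 8.03 and 6.83 CPM in ipsilateral wt libraries. The cKO levels were 8.31, 9.46 and 9.24 CPM contralaterally and 5.48, 4.73 and 6.10 CPM ipsilaterally. The sides overlapped in wt and not in cKO. Its log2 change was -0.05 ± 0.16 in wt (adjusted p = 0.932) and -0.75 ± 0.17 in cKO (adjusted p = 0.0243). The difference of the 2 changes, -0.70 ± 0.23, had the smallest unadjusted p among the members (0.00911) and did not pass the test after adjustment (adjusted p = 1). The cKO call was lost without any 1 of the cKO libraries other than ipsilateral library 3, with adjusted p of 0.0522 to 0.166. Abi3 shares 2913 of its 4153 exon bases with Zfp652 and 1708 with Phospho1, both on the opposite strand and each with at least 296 counts in every library. Whether counting used strand is not given in the sources used here, so reads of these genes may not be told apart.

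The last 3 of that group did not pass the test: Aif1, the actin-binding protein IBA1, gave 0.36 in wt and 0.41 in cKO, the lysosomal membrane protein Laptm5 0.25 and 0.14, and the RP105 partner Ly86 0.36 and 0.21.

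Of the 6 proteases, lipid enzymes and secreted or Golgi proteins, Ctss rose over both genotypes. Ctss was at 56.7, 60.9 and 58.4 CPM in contralateral wt, 58.9, 72.7 and 75.8 CPM in ipsilateral wt, 54.8, 55.4 and 59.6 CPM in contralateral cKO, and 62.6, 69.4 and 64.3 CPM in ipsilateral cKO libraries. The sides overlapped in wt and not in cKO. The change was small, at a log2 of 0.22 ± 0.06 or 16.8% (adjusted p = 0.0417), and was lost in 9 of 12 fits that left out 1 library, with adjusted p of 0.0566 to 0.109. The call held when contralateral library 3 of either genotype or ipsilateral library 1 of wt was left out. Lgmn gave -0.09 ± 0.07 in wt and -0.06 ± 0.07 in cKO, the smallest errors of the set. The leukotriene synthase Ltc4s gave 0.18 and 0.19 with SE of 0.40 and 0.42, the prostaglandin D synthase Hpgds -0.07 and -0.06, the secreted protein Olfml3 -0.01 and 0.03, and the Golgi protein Golm1 -0.04 and -0.27, none of them past the test. Golm1 shares 1297 of its 4424 exon bases with Naa35, on the opposite strand and with at least 305 counts in every library.

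**Figure D3:**
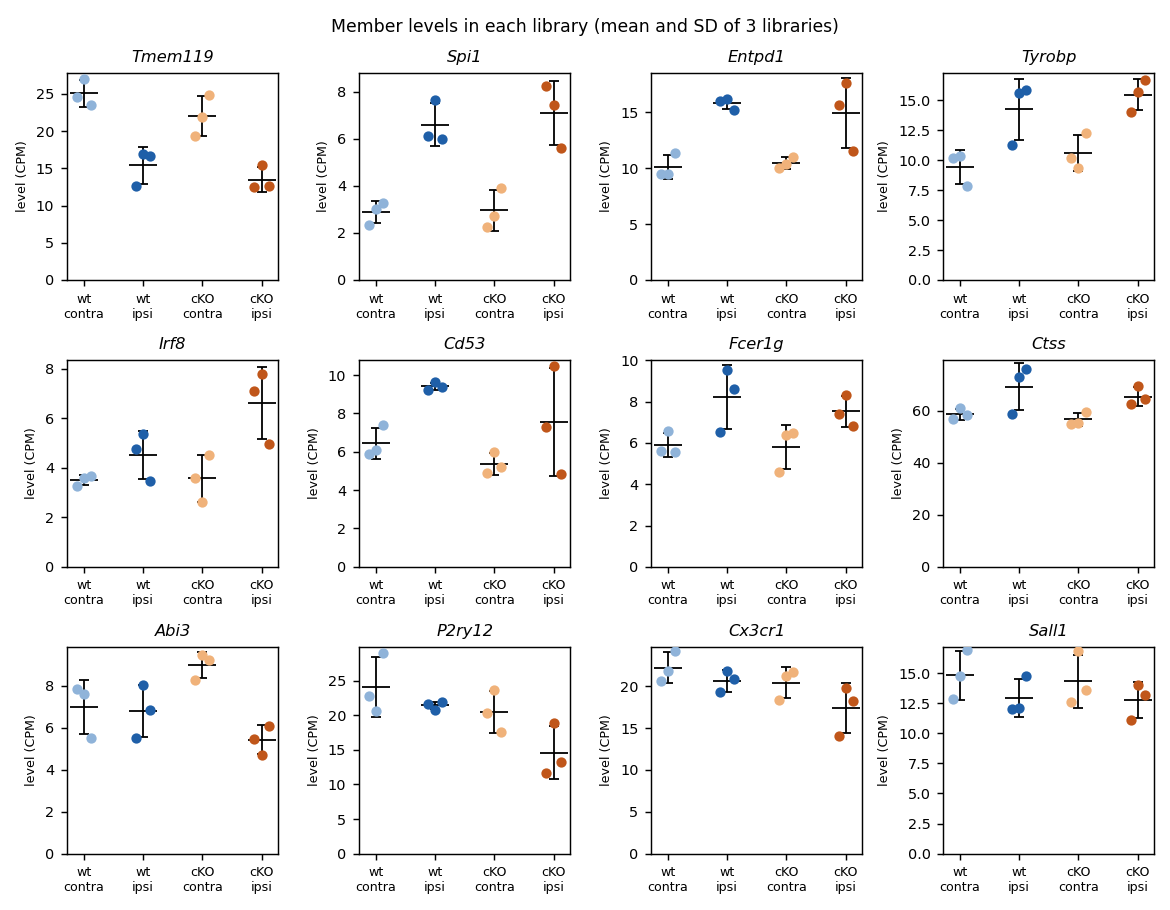
CPM in each of the 12 libraries for the 9 members called in at least 1 comparison and for P2ry12, Cx3cr1 and Sall1. Points are libraries, and bars are the mean and SD of 3. All ipsilateral points of Tmem119 lie below all contralateral ones, those of Spi1 and Entpd1 lie above them, and those of Cx3cr1 and Sall1 overlap.

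The promoters of the members were searched for the DNA core that PU.1 binds, because Spi1 was the member that rose most. RefSeq promoters (250 bases before to 50 after the start, GRCm38.p6) were matched for 25 of the 33 members, with 31 promoters in all. The core AGGAAGT, on either strand, was in 8 of these 31 (25.8%) and in 9.35% of all 32851 promoters. The members that held it were P2ry12, Sall1, Fcrls, Ctss, Ltc4s, Adora3, Hpgds and Cd53. The composite motif GGAANTGAA, which ETS and IRF factors can bind together, was in 1 member promoter, that of Ctss, and in 2.35% of all promoters. The match in Ctss overlaps its AGGAAGT match. Cd53 and Ctss are the called members that hold a match, so 60 bases before to 30 after their starts are shown, with the match in capitals, read on the strand of the gene (the capitals hold the motif's reverse complement). The windows are chr3:106790120-106790209 (minus strand) for Cd53 and chr3:95526726-95526815 (plus strand) for Ctss.
Cd53: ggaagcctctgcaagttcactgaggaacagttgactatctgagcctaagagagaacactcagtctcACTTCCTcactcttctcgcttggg
Ctss: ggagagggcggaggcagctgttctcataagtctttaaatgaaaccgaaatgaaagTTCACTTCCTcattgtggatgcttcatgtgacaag
In Cd53 the match covers bases 7 to 13 after the start, and in Ctss the joined match covers bases -5 to 5. A match is a description of these letters only, and no factor's binding was measured here.

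To tell a change of single transcripts from one of the whole set, each library was given a set level: the median over the 33 members of the log2 CPM less the member's mean over the 12 libraries. It was -0.08, -0.04 and -0.04 in wt contralateral libraries 1 to 3, and -0.05, 0.28 and 0.19 in wt ipsilateral ones. It was -0.12, -0.08 and -0.06 in cKO contralateral libraries and -0.10, 0.15 and -0.04 in cKO ipsilateral ones. No ipsilateral library was below the lowest contralateral library on this level of all 33 members. Above all contralateral ones were wt ipsilateral libraries 2 and 3 and cKO ipsilateral library 2. With the 9 called members left out, the 24 others gave -0.05, 0.26 and 0.16 in wt ipsilateral and -0.18, 0.09 and -0.06 in cKO ipsilateral libraries, where the 6 contralateral libraries lay between -0.10 and 0.06. cKO ipsilateral library 1 was then the lowest of the 12.

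Summed over the 33 members, TPM were 574 ± 26.4 (SD, n = 3) in wt contralateral, 556 ± 11.7 in wt ipsilateral, 564 ± 27.5 in cKO contralateral and 590 ± 75.8 in cKO ipsilateral cortex. Every difference between these group means was smaller than the SD of at least 1 of the groups compared. Summed CPM were 686 ± 11.9, 746 ± 63.6, 665 ± 21.9 and 686 ± 57.4 in the same order. On neither sum were the 33 members together lower on the injured side by more than the spread between libraries. Sums weigh abundant members most: Lgmn averaged 102 TPM and Cx3cr1 9.36 TPM, so falls of low members barely show in them.

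**Figure D4:**
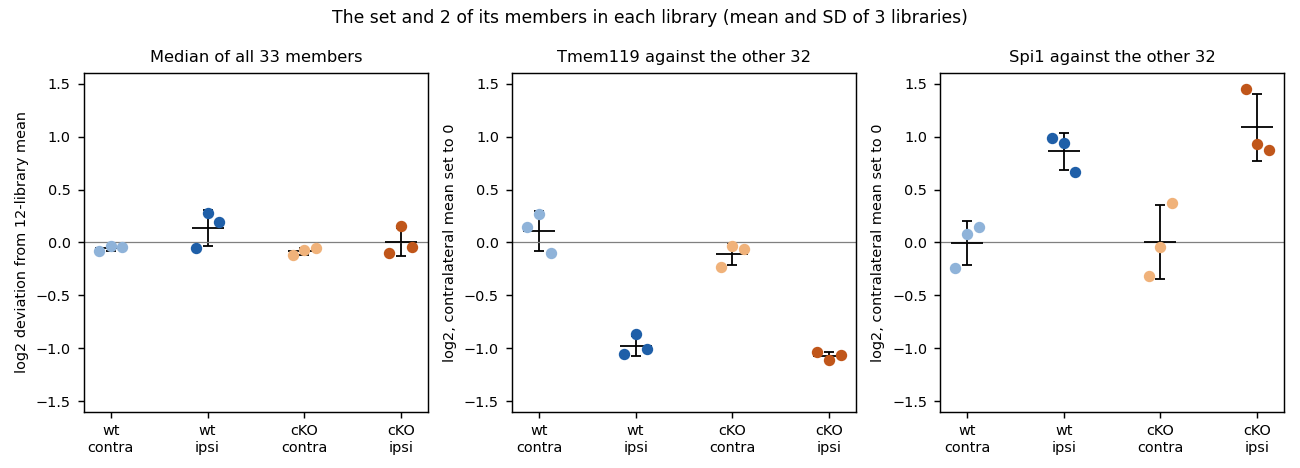
Left, the median log2 deviation of the 33 members in each library from their means over the 12 libraries. Middle and right, Tmem119 and Spi1 in log2 CPM less the median of the other 32 members in the same library, with the contralateral mean set to 0. Points are libraries, and bars are the mean and SD of 3. Tmem119 spans -1.11 to -0.87 on the injured side, while the set itself lies between -0.10 and 0.28 there.

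Measured against the other 32 members of the same library, with the mean of the contralateral libraries set to 0, Tmem119 lay between -1.11 and -0.87 in the ipsilateral and between -0.23 and 0.27 in the contralateral libraries. Spi1 lay between 0.66 and 1.45 ipsilaterally and between -0.31 and 0.38 contralaterally. Both departures therefore stood outside the contralateral range in all 6 injured-side libraries. The sides also did not overlap for Cx3cr1 (ipsilateral -0.72 to -0.30), Sall1 (-0.87 to -0.30), P2ry13 (-0.64 to -0.28) and Selplg (-0.83 to -0.27), all lower relative to the set on the injured side. The reference here is the median level of the other 32. It rose by more than the members' median change of 0.18 in wt and 0.14 in cKO, so a flat member reads as lower. Olfml3 averaged 21.6 CPM contralaterally and 21.4 CPM ipsilaterally in wt, and 19.6 and 20.2 CPM in cKO. On this measure it averaged -0.31 ipsilaterally. Falls, that of Tmem119 included, therefore read larger here than on the usual scaling, and rises smaller. On the usual scaling Cx3cr1, Sall1, P2ry13 and Selplg did not pass the test between sides. How many of all genes separate on this measure was not counted.

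The fit was repeated with libraries scaled to the members themselves, the tested one included, so that a member is tested against its set. Such scaling centres the members near 0, so members that changed less than the median member lie below 0 by construction. This scaling moved the median of all genes by -0.19 in wt, -0.10 in cKO and -0.15 over both. Tmem119 fell by 0.91 on the log2 scale in wt (edgeR's quasi-likelihood test, adjusted p = 5.97e-05) and by 0.79 in cKO (adjusted p = 0.000435). Spi1 rose by 1.0 (adjusted p = 0.00756) and 1.23 (adjusted p = 0.000784). Over both genotypes 4 members rose and 5 fell against the set, where 2.98% of all genes rose and 4.38% fell under the same scaling. Those that fell were Tmem119 (-0.85), Abi3 (-0.54), Slc2a5 (-0.54), P2ry12 (-0.47, adjusted p = 0.0129) and Cx3cr1 (-0.32, adjusted p = 0.0400). On the usual scaling Abi3, Slc2a5, P2ry12 and Cx3cr1 did not pass the test over both genotypes (adjusted p of 0.0506, 0.121, 0.113 and 0.253). P2ry12 also passed there with the replicate number as a block (adjusted p = 0.0295) and with no filter on low counts (adjusted p = 0.00503), and Abi3 with no filter (adjusted p = 0.0164).

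Members that the brain shares with blood leukocytes were counted apart from members held as restricted to microglia within the brain. The 13 shared members had a median log2 side change of 0.36 in wt and 0.32 in cKO, with 12 of 13 above 0 in each. The 10 restricted members (P2ry12, P2ry13, Tmem119, Sall1, Siglech, Gpr34, Fcrls, Olfml3, Slc2a5 and Cx3cr1, which monocytes also use) had a median of -0.10 in wt and -0.21 in cKO, with 3 of 10 above 0 in each. Over both genotypes 6 of the 13 shared members rose and 0 fell, and 1 of the 10 restricted members fell and 0 rose, beside 5.99% of all genes that rose and 2.03% that fell. The set level over the 10 restricted members was -0.10, 0.22 and 0.14 in wt ipsilateral and -0.41, -0.05 and -0.16 in cKO ipsilateral libraries. The contralateral libraries lay between -0.07 and 0.29, above wt ipsilateral library 1 and cKO ipsilateral libraries 1 and 3. Over the 13 shared members the ipsilateral libraries lay between -0.05 and 0.35, all above the contralateral ones (-0.27 to -0.07). These are counts and levels over chosen lists without a test of their difference.

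Markers of blood cells moved with the side as well. The 15 neutrophil markers summed to 3.52 to 4.04 CPM in contralateral wt and 15.1 to 38.5 CPM in ipsilateral wt libraries, and to 3.71 to 9.67 and 24.6 to 70.0 CPM in cKO. Ly6g and Mmp8 were at 0 in all libraries of both contralateral groups, and Camp and Stfa2l1 in those of wt. Of the 10 that passed the filter, 8 rose in wt, 9 in cKO and 10 over both, among them S100a9 (5.52), Trem1 (6.23), S100a8 (4.70) and Cxcr2 (5.28). Of all genes tested, 2.73% rose in wt, 2.56% in cKO and 5.99% over both. A gene can pass the filter through its ipsilateral libraries alone, so counts among kept blood cell markers can lean towards rises. The 15 monocyte and border macrophage markers summed to 93.3 to 132 CPM over the 12 libraries, with the sides overlapping in each genotype. Of the 11 kept, 1 fell in wt (Stab1, a scavenger receptor of border macrophages, -0.56) and 0 in cKO. Over both genotypes Stab1 fell and the platelet chemokine Pf4 rose (1.35). Of all genes tested, 0.184% fell in wt, 0.178% in cKO and 2.03% over both. The 12 lymphocyte markers summed to 1.57 to 2.32 CPM over the contralateral and 2.36 to 5.06 CPM over the ipsilateral libraries, which did not overlap. Cd8a, Nkg7 and Gzma were at 0 in all contralateral libraries, and of the 2 kept, Cd79a, a part of the B cell receptor, rose over both genotypes (1.58, adjusted p = 0.0200). The 7 erythroid markers summed to 2.10 to 242 CPM in contralateral wt and 597 to 2104 CPM in ipsilateral wt libraries, and to 4.78 to 81.7 and 602 to 933 CPM in cKO. Of these, 5 of the 5 kept rose over both genotypes, such as Alas2 (4.19). The part of these cells in the rises of Spi1, Irf8, Tyrobp, Fcer1g, Cd53, Ctss and Entpd1 was not tested.

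Other genes of microglia were counted in the same way, where 2.73% of all genes rose in wt, 2.56% in cKO and 5.99% over both. Of 52 further genes of microglia, 7 rose and 0 fell in wt, 5 rose and 0 fell in cKO, and 13 rose and 1 fell over both, with medians of 0.15, 0.09 and 0.13. Gpr84, a receptor for medium-chain fatty acids, rose most clearly (3.89 in wt, 5.03 in cKO). Ptprc, the leukocyte phosphatase CD45, rose by 1.38 over both, the G-CSF receptor Csf3r by 0.98 and the interleukin-10 receptor Il10ra by 0.78. Of 19 tested activation genes of microglia and macrophages, 14 rose in wt and 15 in cKO and 0 fell in either, with medians of 3.32 and 3.78. They included Atf3 (4.39 and 4.55), Nfkbiz (3.07 and 2.91), Cd14 (3.39 and 3.62) and Il1b (4.01 and 4.98).

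Ligands and partners of the members' receptors were counted next. Of 18, chosen for their link to these receptors, 2 rose in each genotype, where 2.73% of all genes rose in wt and 2.56% in cKO. Tgfb1, a ligand that signals through TGFBR1, rose by 1.12 in wt and 1.09 in cKO, and Csf1, a ligand of CSF1R, by 0.48 and 0.67. Sirpa, the receptor of the CD47 signal, fell by 0.14 over both genotypes (adjusted p = 0.0389). Of 13 other nucleotide and adenosine receptors or related receptors tested, 2 rose in wt and 1 in cKO. Gpr183, an oxysterol receptor, rose by 1.48 and 1.74, and P2ry2, an ATP and UTP receptor, by 1.30 in wt.

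Markers of the other brain cells also moved with the side. Over both genotypes the median log2 change was 0.24 for astrocyte, 0.14 for endothelial and mural, 0.10 for oligodendrocyte and -0.11 for neuron markers, beside 0.20 for the 33 members. Of 12 astrocyte markers 8 rose over both genotypes, led by the factor Sox9 (0.82), and 3 of 13 endothelial and mural markers rose, led by Flt1 (0.44). Of 12 oligodendrocyte markers 1 rose (Mbp, 0.49), and of 12 neuron markers 4 fell, led by the neuronal tubulin Tubb3 (-0.38). Over both genotypes 5.99% of all genes rose and 2.03% fell. These shifts of the markers stood beside the changes of the members, and their part in them was not tested.

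Between genotypes, no member passed the test on either side, where 0% of all genes did. In contralateral cortex 0 members were higher and 0 lower in cKO by edgeR's quasi-likelihood test, with 0% of all genes called in each direction, and 1 member (Abi3, 0.36) had an unadjusted p under 0.05. In ipsilateral cortex the counts were 0 and 0, again beside 0% of all genes, with 5 members at an unadjusted p under 0.05. Over both sides they were 0 and 0, beside 0%, with 4 members at an unadjusted p under 0.05. An unadjusted p under 0.05 was found for 2.703% of all genes tested in contralateral cortex, 5.862% in ipsilateral cortex and 6.456% over both sides. DESeq2 and limma-voom also called 0 members in each of these comparisons.

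The median log2 difference, cKO minus wt, was -0.05 contralaterally, -0.13 ipsilaterally and -0.08 over both sides. Over both sides 27 of the 33 members lay below 0, where 49.6% of all genes tested did. All 10 restricted members were among those 27, with a median of -0.19. In ipsilateral cortex the sign of the median depended on scaling: it was 0.053 in log2(TPM + 1), a scale on which the median of all genes shifted by 0.16.

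The members with the smallest adjusted p over both sides by edgeR's quasi-likelihood test were Gpr34 (-0.45, 95% interval -0.72 to -0.18, adjusted p = 0.585) and P2ry12 (-0.39, -0.62 to -0.15, adjusted p = 0.585). Slc2a5 (-0.42, -0.70 to -0.14, adjusted p = 0.654) and Cx3cr1 (-0.19, -0.36 to -0.02, adjusted p = 0.757) followed. These are the 4 members whose unadjusted p was under 0.05. In ipsilateral cortex Gpr34 was at 10.2, 9.23 and 8.85 CPM in wt and 4.87, 7.33 and 3.86 CPM in cKO, a log2 difference of -0.76 ± 0.20 (adjusted p = 0.691). Of the 5 members with an unadjusted p under 0.05 there, P2ry12 (-0.54, adjusted p = 0.754), Slc2a5 (-0.71, adjusted p = 0.751) and Fcrls (-0.27, adjusted p = 0.775) were also lower in cKO. None of them passed the test. Irf8 was the member of those 5 that lay higher in cKO (0.59, adjusted p = 0.754), also without passing. When all genes with any count were tested, 29438 in all, Gpr34 and P2ry12 passed the test in ipsilateral cortex (adjusted p = 0.000913 and 0.00250) and over both sides (adjusted p = 0.00858 and 0.00100). That fit called 119 genes higher and 104 lower in ipsilateral cortex (0.404% and 0.353%), and 123 higher and 113 lower over both sides (0.418% and 0.384%), where the filtered fit called 0.

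Tmem119 and Spi1, whose levels moved with the side, did not pass the test between genotypes. Tmem119 gave -0.19 contralaterally and -0.18 ipsilaterally, with 95% intervals of -0.44 to 0.06 and -0.44 to 0.09. Spi1 gave 0.02 and 0.14, with intervals of -0.41 to 0.45 and -0.25 to 0.54. Genotype differences within these intervals could not be told from 0 with 3 libraries per group.

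**Figure D5:**
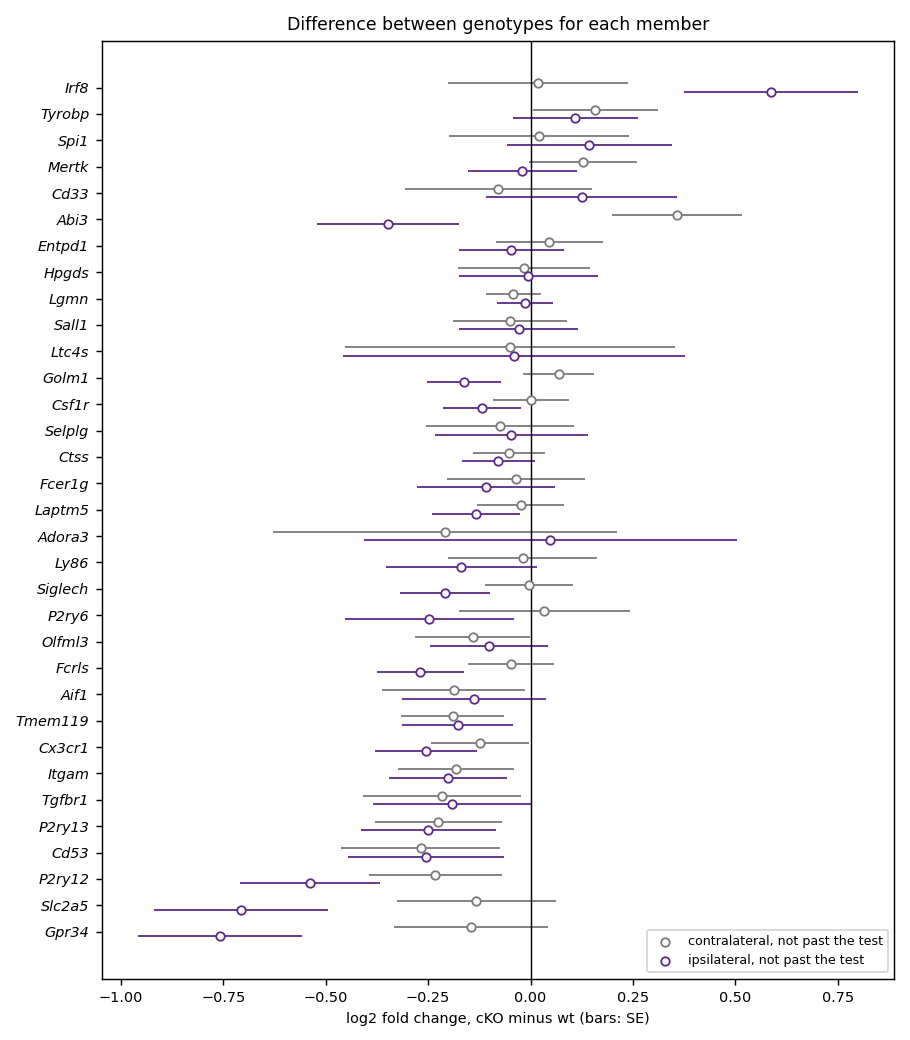
Log2 fold change of each member, cKO minus wt, with bars of 1 SE (3 libraries per group). Grey is contralateral and purple ipsilateral cortex, and open points did not pass the test. All points are open, and Gpr34, Slc2a5 and P2ry12 lie lowest in ipsilateral cortex (-0.76, -0.71 and -0.54).

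The change with injury side was also compared between genotypes directly. For the difference of side responses, 0 members were higher and 0 lower by edgeR's quasi-likelihood test, beside 0% of all genes in each direction. An unadjusted p under 0.05 was found for 2 members, Abi3 (-0.70) and Gpr34 (-0.61), and for 2.26% of all genes tested. DESeq2 and limma-voom called 0 members. The median of the 33 differences was -0.03. Slc2a5 (-0.57 ± 0.29) and P2ry12 (-0.31 ± 0.24) were also below 0 without passing, and Sall1 (0.02 ± 0.20) and Spi1 (0.12 ± 0.30) had intervals centred near 0.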

How the data were processed

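The submitters' processing notes name Trim Galore 0.6.4 for trimming, STAR 2.7.1a with the build mm10, RSEM 1.2.28 and DESeq2 1.36.0. The authors deposited RSEM estimated counts, which are whole numbers in the file, and the TPM of each gene and library. Which annotation was used, and whether counting was strand-aware, is not given in the sources used here. Per the labels' protocols the kit was a stranded mRNA kit.

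GENCODE M21 gave symbols, mm10 coordinates and overlaps for 55227 of 55487 identifiers (99.5%). The tools were edgeR 4.0.16, limma 3.58.1 and DESeq2 1.42.0 under R 4.3.3. The filter was filterByExpr (minimum count 10, minimum total 15): 16836 genes passed, 38651 did not, and those that passed held 99.92% or more of each library's counts. After scaling by the trimmed mean of M values, 1 quasi-likelihood fit in edgeR covered the 4 groups (n = 3). P-values were adjusted by Benjamini and Hochberg's method over the genes that passed, with a threshold of 0.05. Intervals are the estimate ± 1.96 SE. Log2 CPM used a prior count of 2. Depth ran from 7.96 to 33.6 (in units of 1e6 counts), where 3 counts are 0.377 and 0.0894 CPM.

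The members and lists were chosen with earlier results of these data known, so counts over them are descriptions. All 33 members are named, with every library's value for called members and for Cx3cr1, P2ry12, Sall1 and Csf1r. From other lists up to 4 called genes with the smallest adjusted p were named. The scaling alternatives were DESeq2 size factors, library totals and scaling to the members. The filter alternatives were none and a strict one (1 CPM in 3 libraries, total of 100). The test alternatives were DESeq2's test, voom in limma, and limma on log2(TPM + 1) or log2(TPM + 0.1) where a gene averaged at least 1 TPM. Libraries were left out singly and 2 together, the compared groups were fitted alone, and the replicate number was used as a block. The code was tested on simulated data.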

Additional observations from a re-analysis of the deposited data

How the results depend on the processing

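Of 376 values of called members under the alternatives, 299 kept direction and call, 77 kept direction and lost the call, and 0 reversed. Tmem119 kept its call in wt and over both genotypes under every alternative run, and Spi1 under all but the TPM fits. Of 495 counts and medians, 439 stayed within 1.5 times the value given or, for medians, within the spread of the set level (SD of 0.11), and 56 moved.

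Members that rose in wt numbered 1 when scaled to the members, 6 with no filter, 4 by the DESeq2 test, 0 in either TPM fit, 4 without cKO ipsilateral library 3 and wt contralateral library 3 together, and 1 to 4 with single libraries left out (1 without either wt library 2). The wt median was -0.040 when scaled to the members, -0.019 in log2(TPM + 1) and -0.020 in log2(TPM + 0.1). In cKO, 6 members rose with no filter, 0 in TPM, 1 with the replicate block, and 1 to 4 with single libraries left out, and 1 fell in TPM and 0 to 2 with single libraries left out (0 without cKO ipsilateral library 1). The cKO median ran from -0.0085 (without cKO ipsilateral library 2) to 0.17. Over both genotypes, 4 rose when scaled to the members, 12 with no filter, 11 by the DESeq2 test, 0 in TPM and 3 to 10 with single libraries left out (3 without either ipsilateral library 2). The members that fell over both genotypes numbered 5 when scaled to the members, 3 with no filter, 2 by the DESeq2 test, with library totals, without the 2 libraries together or with the replicate block, and 1 to 2 with single libraries left out. The median over both genotypes was 0.049 when scaled to the members and 0.076 and 0.079 in the TPM fits. Between genotypes, 2 members were lower with no filter in ipsilateral cortex and over both sides. The ipsilateral genotype median was 0.010 when scaled to the members and 0.053 and 0.055 in TPM. The median difference of side responses was 0.088 in log2(TPM + 0.1) and ran from -0.18 to 0.019 with single libraries left out. Without cKO ipsilateral library 3, the shallowest, 4 members rose and 2 fell in cKO, and 8 rose and 1 fell over both. The cause of these shifts was not tested.

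The share of all genes called moved with the setting too. In wt 2.73% of all genes rose, and 1.4% did when scaled to the members, 2.89% with no filter, 3.64% by the DESeq2 test, 0.828% and 0.815% in the TPM fits, 4.45% without the 2 libraries together and 1.45% to 4.01% with single libraries left out. In cKO 2.56% rose and 0.178% fell, against 2.91% rising with no filter or with the replicate block, 1.16% and 1.14% rising and 0.0204% and 0.0136% falling in TPM, and 1.56% to 3.04% rising and 0.035% to 0.338% falling with single libraries left out. Over both genotypes 5.99% rose and 2.03% fell. These shares were 2.98% and 4.38% when scaled to the members, 5.19% and 3.47% with library totals, 5.14% and 1.41% with no filter, 7.11% and 3.43% by the DESeq2 test, 6.63% and 2.19% with the replicate block, and 7.81% and 3.85% without the 2 libraries together. In the TPM fits 1.92% and 1.9% rose, and with single libraries left out 4.27% to 7.88% rose and 0.763% to 4.22% fell.

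The labels do not say whether same-numbered libraries of the 2 sides come from the same animal, and the main fit treated them as independent. They correlated at -0.0020 to 0.0941 after group means were removed, with none over 0.1. With 3 libraries per group these correlations cannot settle whether the sides are paired. With the replicate block, the members that fell over both genotypes were Tmem119 and P2ry12 (-0.34, adjusted p = 0.0295), and Irf8 and Entpd1 lost their cKO calls. Genes with few counts, such as Adora3 and Ltc4s, had SE of 0.40 or more.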
